A study of Mus musculus with 10 samples.

Results

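The inner root sheath is the sleeve of hardened cells that surrounds a growing hair inside its follicle, and 9 of its structural genes were followed through the skin of younger and older mice. They were chosen by name from the 47729 genes of the count table: the type I keratin genes Krt25, Krt26, Krt27 and Krt28, the type II keratin genes Krt71, Krt72, Krt73 and Krt74, and Tchh, which encodes trichohyalin. Skin RNA came from male C57BL/6 mice, with 5 libraries labelled 9 months and 5 labelled 24 months, and each library was taken to be 1 animal because its title has a number of its own. The text on the design of the series gives the younger age as 2 months instead, so the younger age is uncertain throughout; the groups are named here by the sample labels. The labels name no treatment, allele or transgene in either group. Body site, hair cycle stage and dates are not stated in what was used here. Replicates were numbered in the order in which the samples are listed, so a replicate number pairs nothing between the ages. Should any libraries share an animal, the p-values cover only the variation from library to library.

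Keratins assemble as pairs of a type I and a type II chain into intermediate filaments, the cables that stiffen epithelial cells. In the inner root sheath the filaments are embedded in trichohyalin, whose arginines are converted to citrulline by peptidylarginine deiminases and whose chains are joined to each other and to keratins by transglutaminases. The sheath forms only while a follicle grows a hair and is lost when the follicle regresses, so these genes are known as markers of growing follicles. Changes in KRT71, KRT74, KRT25 and TCHH are known from hereditary woolly or uncombable hair in humans, and changes in Krt25, Krt27 and Krt71 from wavy-coated mouse mutants.

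Coordinates are those of the GENCODE annotation of GRCm38. The type I genes lay side by side on the minus strand of chromosome 11 between 99315516 and 99374903, in the order Krt25 (99315516 to 99322951), Krt26 (99328550 to 99337966), Krt27 (99345565 to 99351104) and Krt28 (99364872 to 99374903). The type II genes lay on the minus strand of chromosome 15 between 101733949 and 101802346, in the order Krt71 (101733949 to 101743109), Krt74 (101754259 to 101763504), Krt72 (101776172 to 101786460) and Krt73 (101793308 to 101802346). Tchh lay on the plus strand of chromosome 3 at 93442330 to 93449077. Mouse Krt74 is annotated as a transcribed unitary pseudogene and the other 8 genes as protein coding. The annotated exons covered 1989, 3668, 1550 and 1624 bases of Krt25, Krt26, Krt27 and Krt28. They covered 2186, 1994, 2168 and 1648 bases of Krt71, Krt72, Krt73 and Krt74, and 5823 bases of Tchh. An antisense non-coding gene, Gm37245, overlaps Tchh but shares 0 exon bases with it, and it held at most 8 counts in a library.

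Promoter sequences are shown because 8 of the 9 genes had nearly the same profile across the libraries. RefSeq promoters on GRCm38.p6 matched 8 of the 9 members, all except Krt74. The 150 bases before the RefSeq start site are printed below for a pair of type I genes, a pair of type II genes and Tchh, 5′ to 3′ on the strand of the gene; capitals mark the TATAAA nearest to the start and each CAATTA or TAATTA.
Krt25 (chr11:99322952-99323101, minus strand): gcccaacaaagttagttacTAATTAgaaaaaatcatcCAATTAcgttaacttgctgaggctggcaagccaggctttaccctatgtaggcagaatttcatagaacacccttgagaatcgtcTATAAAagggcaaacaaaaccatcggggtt
Krt28 (chr11:99374904-99375053, minus strand): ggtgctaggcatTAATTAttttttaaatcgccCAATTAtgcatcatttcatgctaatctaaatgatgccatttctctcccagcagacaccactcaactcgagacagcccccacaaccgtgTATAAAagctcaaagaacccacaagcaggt
Krt71 (chr15:101743098-101743247, minus strand): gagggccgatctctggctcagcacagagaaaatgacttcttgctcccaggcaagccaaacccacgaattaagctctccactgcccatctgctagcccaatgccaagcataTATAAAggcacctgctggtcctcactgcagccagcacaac
Krt73 (chr15:101802361-101802510, minus strand): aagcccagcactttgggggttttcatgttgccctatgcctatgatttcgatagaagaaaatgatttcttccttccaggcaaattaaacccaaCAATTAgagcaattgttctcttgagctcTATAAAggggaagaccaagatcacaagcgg
Tchh (chr3:93442180-93442329, plus strand): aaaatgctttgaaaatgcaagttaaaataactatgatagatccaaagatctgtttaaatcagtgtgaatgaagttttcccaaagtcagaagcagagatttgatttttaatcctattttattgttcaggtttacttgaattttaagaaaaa
All motifs were picked after the sequences had been seen, and 250 bases before each start were searched on both strands. TATAAA, the letters of a TATA box, occurred in 7 of the 8 promoters, all but that of Tchh, and in 12.4% of 32851 RefSeq promoter entries. On the strand of the gene, lying wholly between 40 and 16 bases before the start, it occurred in 5 of 8, against 1.99% of all entries. It began 30 bases before the start in Krt25, Krt26, Krt28 and Krt73, 40 bases before it in Krt71 and 15 bases before it in Krt27. That of Krt72 lay 203 bases before the start on the other strand. CAATTA or TAATTA, core letters bound by many homeodomain proteins, occurred in 5 of 8 (Krt25, Krt26, Krt28, Krt71 and Krt73), against 11.3% of all entries. No CAATTA overlapped a TAATTA where a promoter held both. AGATAA, an element bound by factors of the GATA family, occurred in 5 of 8 (Krt25, Krt27, Krt71, Krt73 and Tchh) against 9.99%. CTTTGA, a LEF/TCF core, occurred in 2 of 8 (Krt28 and Tchh) against 13.8%. These are matches of letters and describe the windows searched.

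Levels are CPM, the counts scaled to a common library size, after scaling the libraries by the trimmed mean of M values, from total counts of 29324259 to 55976007 per library. Across the 9 genes the same libraries were high and low: 9 months replicates 4 and 5 stood above all 8 other libraries for 9 of 9 genes, 9 months replicates 2 and 3 came next for 8 of 9, and 9 months replicate 1 lay inside the range of the 24 months libraries for 8 of 9. Inner root sheath transcripts were thus most abundant in 2 of 10 libraries, which both belong to the younger group, intermediate in 2 other younger libraries for all genes but Krt74, and lowest in the remaining 6. In whole skin, fewer cells of a type and less RNA per cell cannot be told apart.

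Krt25 is a type I keratin of every layer of the sheath. Its levels in 9 months replicates 1 to 5 were 3.28, 35.7, 27.6, 1048.4 and 2890 CPM. At 24 months they were 3.18, 11.2, 4.13, 1.71 and 5.24 CPM. The groups overlapped through 9 months replicate 1, which stood between the lowest and the highest of the older libraries. Krt27, another type I keratin of all sheath layers, had 3.24, 36.9, 25.8, 1028 and 3065 CPM at 9 months. The older libraries held 3.69, 9.22, 5.01, 2.23 and 6.92 CPM of Krt27. Again 9 months replicate 1 lay among the older libraries, and the other 4 younger ones lay above them. Krt28, the third broadly expressed type I keratin of the sheath, had 2.36, 14.4, 9.77, 348 and 1069 CPM at 9 months. Its 24 months levels were 2.76, 3.57, 2.45, 2.07 and 1.85 CPM, which spread only 1.93-fold, the narrowest range of the 9 genes at that age. Krt26, in humans a keratin of the sheath cuticle, had 1.02, 12.7, 8.30, 346 and 1041 CPM at 9 months. In the older libraries Krt26 stood at 1.06, 2.24, 0.801, 0.803 and 1.85 CPM. Both genes showed the same order of younger libraries as Krt25.

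Krt71 is the type II keratin shared by the Henle layer, the Huxley layer and the cuticle of the sheath. Its levels were 9.62, 89.0, 64.9, 2261 and 7053 CPM at 9 months. The 24 months libraries held 11.5, 30.4, 18.3, 13.8 and 16.01 CPM. Here 9 months replicate 1 was the lowest of all 10 libraries, the only case among the 9 genes in which it fell outside the older range. Krt72, in humans a cuticle keratin, had 1.66, 19.0, 11.9, 509 and 1643 CPM at 9 months. It had 1.99, 3.35, 2.28, 0.881 and 1.61 CPM at 24 months. Its ratio of 9 months replicate 5 to the lowest library, 1865, was the highest of the 9 genes. Krt73, likewise a human cuticle keratin, had 0.952, 10.4, 8.98, 363 and 959 CPM at 9 months. At 24 months Krt73 had 1.32, 2.22, 1.15, 0.803 and 1.30 CPM. The 4 upper younger libraries were again clear of the older ones. Krt74 encodes a Huxley layer keratin in humans and is a pseudogene here. Its levels were 0.141, 0.299, 0.287, 11.6 and 27.9 CPM at 9 months. The older libraries held 0.417, 0.541, 0.150, 0.0518 and 0.264 CPM of Krt74. It was the 1 member for which 9 months replicates 2 and 3 did not exceed the older libraries.

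Tchh, the matrix protein of the sheath and of the hair medulla, had 13.6, 95.8, 69.8, 2590 and 9718 CPM at 9 months. Its 24 months levels were 14.7, 29.2, 15.5, 10.7 and 21.2 CPM. In 9 months replicate 5 Tchh had the highest count of all genes, and Krt71 the next highest. Krt27 and Krt25 ranked 14 and 15 there, and Krt72, Krt28, Krt26 and Krt73 ranked between 42 and 71. The 9 genes together held 2.82% of the counts of that library and 0.829% of those of 9 months replicate 4. They held 0.0322% and 0.0216% in 9 months replicates 2 and 3, 0.00336% in 9 months replicate 1 and 0.00333% to 0.00962% at 24 months. From 9 months replicate 4 to replicate 5 the levels differed by 2.4-fold for Krt74 to 3.75-fold for Tchh. Within the older group, replicate 2 was highest for 9 of 9 genes, and replicate 4 was the lowest of all 10 libraries for 6 of 9.

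**Figure D1:**
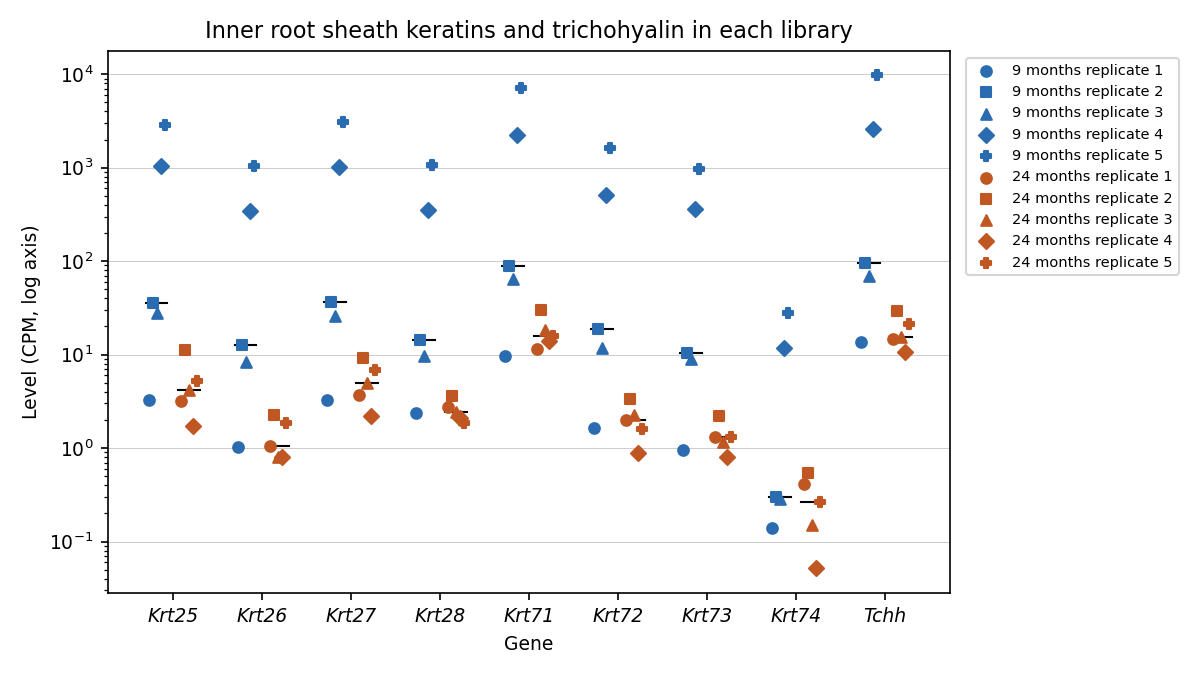
Level of each inner root sheath gene in each library in CPM on a log axis, with 9 months libraries in blue, 24 months libraries in orange, a marker shape per replicate and a black line at the median of each age. Tchh and Krt71 reach 9718 and 7053 CPM in 9 months replicate 5, while 9 months replicate 1 sits among the 24 months libraries for 8 of 9 genes.

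The comparison between the ages asks how inner root sheath transcripts differ between younger and older skin. All 9 genes had a lower mean at 24 months, but 0 of 9 passed an adjusted p under 0.05 in the quasi-likelihood test of edgeR (Benjamini-Hochberg over all genes), where 0% of 17668 genes were called in either direction. At an unadjusted p under 0.05, 9 of 9 were lower, against 6.45% of all genes tested that were lower. Most of the 9 genes had nearly the same profile across the libraries, so such counts are not independent observations. The same holds below for counts over genes of a list that vary together. Mean Tchh levels were 2498 ± 4183 CPM at 9 months and 18.2 ± 7.16 CPM at 24 months (SD, n = 5 each). Those of Krt71 were 1896 ± 3037 and 18.0 ± 7.36 CPM. The SD at 9 months exceeded the mean for both. The log2 fold change of 24 over 9 months was -7.10 ± 1.80 for Tchh (SE; adjusted p = 0.163 by edgeR) and -6.72 ± 1.73 for Krt71 (adjusted p = 0.164 by edgeR). It was -7.29 ± 1.85 for Krt25, -7.70 ± 1.87 for Krt26, -7.26 ± 1.83 for Krt27 and -6.83 ± 1.69 for Krt28. For the other type II genes it was -7.75 ± 1.88 for Krt72, -7.63 ± 1.84 for Krt73 and -4.83 ± 1.50 for Krt74. The adjusted p by edgeR was 0.163 for each of these except Krt74, at 0.202. The median over the 9 genes was -7.26, and over all genes tested it was -0.01.

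With DESeq2, 9 of 9 genes were called lower at 24 months, with adjusted p from 7.38e-06 for Krt26, Krt72 and Krt73 to 0.0103 for Krt74; DESeq2 called 2.29% of 20863 genes lower and 2.06% higher. The size rested on 9 months replicates 4 and 5. Without both, the log2 fold change was -2.12 ± 0.69 for Krt25, -2.44 ± 0.64 for Krt26, -2.02 ± 0.63 for Krt27 and -1.80 ± 0.46 for Krt28 (SE). It was -1.60 ± 0.55 for Krt71, -2.42 ± 0.62 for Krt72, -2.31 ± 0.59 for Krt73 and -1.71 ± 0.51 for Tchh, and it turned to 0.20 ± 0.63 for Krt74. At an unadjusted p under 0.05, 8 of 9 were then lower and 0 of 9 higher, against 4.14% and 4.65% of genes. After adjustment 0 of 9 were called lower, against 0.00554% of genes, with adjusted p by edgeR of 0.514 to 0.549 for these 8 and 0.92 for Krt74. Without 24 months replicates 1 and 2, in which fibroblast markers were lowest, the 9 changes lay between -8.10 and -5.66 (adjusted p of 0.511 to 0.56 by edgeR). At an unadjusted p under 0.05, 9 of 9 were lower and 0 of 9 higher there, against 3.62% and 4.96% of genes. With limma-voom, which averages log values, the 9 changes over all 10 libraries lay between -4.89 and -2.79, with adjusted p of 0.384 to 0.562.

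**Figure D2:**
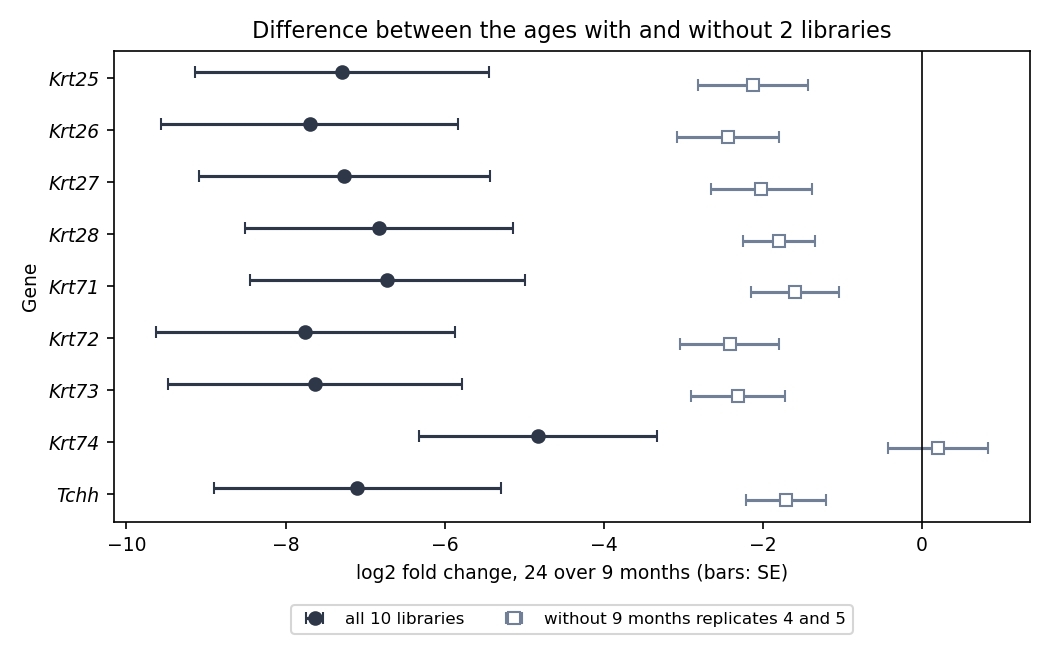
Log2 fold change of 24 over 9 months for each gene by edgeR, with bars for the SE, from all 10 libraries (filled circles) and without 9 months replicates 4 and 5 (open squares). Krt71 moves from -6.72 to -1.60 and Krt74 from -4.83 to 0.20.

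Levels of different genes were set side by side per kilobase of exon. In 9 months replicate 5 they were 3226 CPM per kb for Krt71, 1977 for Krt27, 1669 for Tchh, 1453 for Krt25, 824 for Krt72, 658 for Krt28, 442 for Krt73, 284 for Krt26 and 16.9 for Krt74. Krt71 stood above Krt27 in 10 of 10 libraries, and the lower end of the order, Krt72 above Krt73 above Krt26 above Krt74, also held in 10 of 10. The middle was less fixed: Krt27 exceeded Tchh in 7 of 10 libraries, Tchh exceeded Krt25 in 6 of 10, and Krt25 exceeded Krt28 in 8 of 10. Krt28 exceeded Krt72 in 5 of 5 older libraries and in 2 of 5 younger ones.

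The make-up of the keratin counts was described next, as the share of each gene in the summed counts of the 8 keratins, which does not depend on how libraries are scaled. The sums were 632, 6571, 6034, 224915 and 1019329 counts in 9 months replicates 1 to 5 and 806, 2320, 1367, 864 and 1458 counts at 24 months. Krt71 made up 43.2%, 40.8%, 41.2%, 38.2% and 39.7% of them at 9 months. At 24 months it made up 44.3%, 48.4%, 53.3%, 61.8% and 45.7%. Every older library thus lay above every younger one, narrowly between 9 months replicate 1 and 24 months replicate 1, and no test was made of this. The exact (Clopper-Pearson) 95% interval of the highest share, in 24 months replicate 4, was 58.5% to 65.1%. That of 9 months replicate 1 was 39.3% to 47.2%, which contained the shares of 24 months replicates 1 and 5. Intervals cover counting error only. For each of the other keratins the shares overlapped between the ages.

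Krt72 took 7.44% to 9.26% of the keratin counts at 9 months and 3.94% to 7.69% at 24 months. Krt25 took 14.7% to 17.7% at 9 months and 7.64% to 17.9% at 24 months, with the lowest share in 24 months replicate 4. Krt27 took 14.6% to 17.4% at 9 months and 9.95% to 19.8% at 24 months. These ranges overlapped, and that of the older libraries was the wider for Krt72, Krt25 and Krt27. Krt28 had its highest shares in 9 months replicate 1, at 10.6%, and in 24 months replicate 1, at 10.7%, which are the libraries with the fewest keratin counts. In 9 months replicates 2 to 5 its share was 6.59%, 6.20%, 5.89% and 6.02%. The ratio of type II to type I counts, each per kilobase, was 1.05, 1.02, 1.03, 0.977 and 1.03 at 9 months, close to 1. At 24 months it was 1.19, 1.18, 1.44, 1.89 and 1.02. Tchh had 0.438 to 0.612 counts per keratin count at 9 months and 0.453 to 0.604 at 24 months, so that trichohyalin and the keratins kept nearly the same proportion over libraries whose keratin sums ran from 632 to 1019329 counts.

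**Figure D3:**
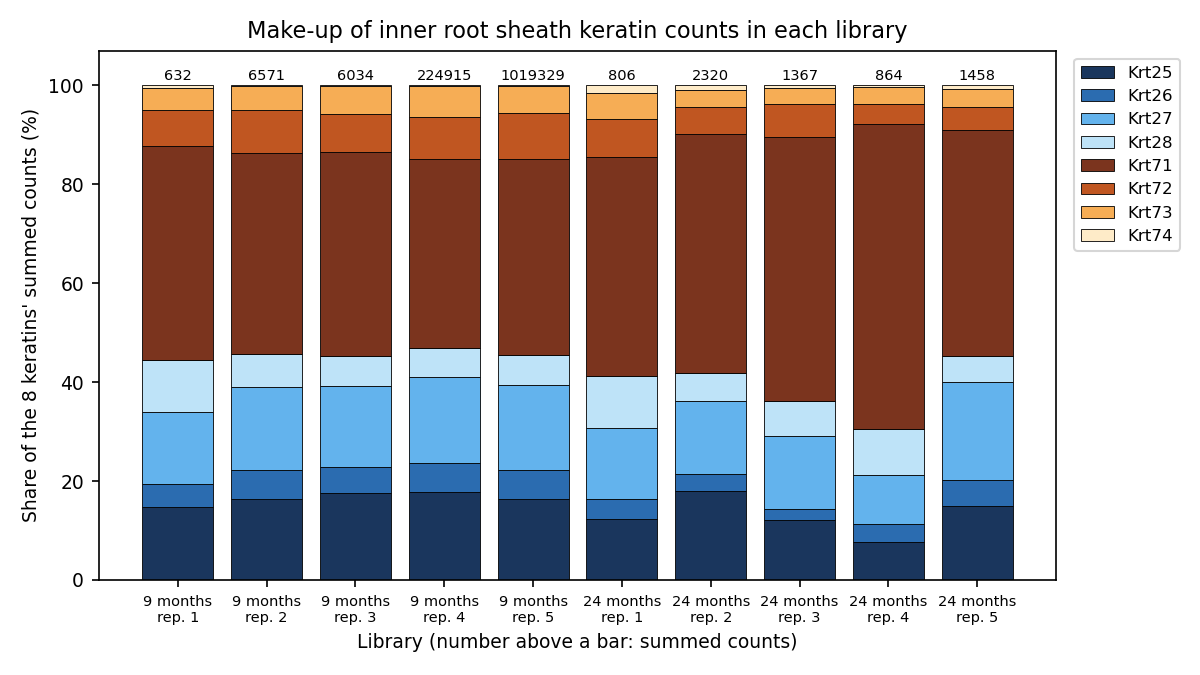
Share of each gene, in percent, in the summed counts of the 8 inner root sheath keratins in each library, with the sum above each bar; blue shades are type I and brown shades type II genes. Krt71 fills 38.2% to 43.2% of the bars at 9 months and 44.3% to 61.8% at 24 months.

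Counts in the low libraries were small beside those of 9 months replicate 5. Leaving out Krt74, they were 0.0485% to 0.109% of its counts in 9 months replicate 1, 0.517% to 0.706% in 9 months replicate 2 and 0.479% to 0.637% in 9 months replicate 3. At 24 months they ran from 0.036% in replicate 4 to 0.277% in replicate 2. Whether reads of other libraries are among these low counts was not tested.

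The partners of the sheath were followed in lists of genes grouped by role, and 0 genes of any list passed an adjusted p under 0.05 by edgeR. Of 7 enzymes that modify or join sheath proteins, 4 were lower and 1 was higher at an unadjusted p under 0.05, where 6.45% and 6.62% of all genes were; the median log2 fold change was -0.97. Padi3, the deiminase that acts on trichohyalin, had 0.705, 4.72, 3.71, 158 and 455 CPM at 9 months and 2.89, 1.51, 0.952, 0.596 and 1.08 CPM at 24 months. Its log2 fold change of -6.48 ± 1.75 (SE) was close to those of the members. Padi1 had a log2 fold change of -5.88 ± 1.77. Padi2, another deiminase, went the other way at 0.87 ± 0.33, and Tgm5, a transglutaminase, had -0.70 ± 0.27. Tgm3, the transglutaminase that joins trichohyalin, had 60.5 and 100.9 CPM in 9 months replicates 4 and 5 and 11.1 to 31.0 CPM in the other 8 libraries.

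Among 6 genes of the S100-fused family to which trichohyalin belongs, 3 were lower at an unadjusted p under 0.05, against 6.45% of all genes, with a median log2 fold change of -1.18. Tchhl1, which encodes a trichohyalin-like protein, had 241 and 601 CPM in 9 months replicates 4 and 5 against 0.467 to 10.5 in the others (log2 fold change -6.83 ± 1.74). Crnn, the gene of cornulin, had 182 and 549 CPM against 0.494 to 8.31 (-7.43 ± 1.80). Rptn, the gene of repetin, had a smaller difference at -1.80 ± 0.72. Flg, the gene of epidermal filaggrin, had -0.56 ± 0.33 and did not pass the unadjusted threshold.

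Of 8 junction, protease and lipid-signal genes of the sheath, 4 were lower at an unadjusted p under 0.05, against 6.45% of all genes. Dsg4, a desmoglein of the hair follicle, had 52.1 and 135 CPM in 9 months replicates 4 and 5 against 0.141 to 1.23 in the others (-6.66 ± 1.81). Gjb6, a gap junction gene, had -3.82 ± 1.09, Prss53, a protease gene, -1.94 ± 0.58, and Ctsl, a lysosomal protease gene, -0.48 ± 0.17. Of 12 transcription factors of the hair matrix and sheath, 8 were lower at that threshold, against the same 6.45%. Foxe1 had a log2 fold change of -5.61 ± 1.41 and groups that did not overlap, as 1.23% of all genes had in this direction. Its levels were 7.63 and 28.0 CPM in 9 months replicates 4 and 5. They were only 0.282 to 0.418 CPM in 9 months replicates 1 to 3 and 0.0963 to 0.243 CPM at 24 months. The separation of the groups thus rests on very low values. Hoxc13, a regulator of hair keratins, had -3.41 ± 0.93 and groups that did not overlap either. Lef1 and Msx2, both factors of the hair matrix, had -3.29 ± 0.92 and -3.21 ± 0.93. Gata3, a factor needed for inner root sheath formation, stood at 146 to 273 CPM over the 10 libraries with a log2 fold change of 0.05 ± 0.20. Its level in 9 months replicates 4 and 5, at 149 and 164 CPM, was within the range of the others.

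The neighbouring layers differed from one another, and only the hair shaft keratins had changes as large as those of the members. The companion layer keratin Krt75 had 286 and 773 CPM in 9 months replicates 4 and 5 against 12.6 to 83.5 in the others (-2.68 ± 0.76), and 3 of 6 companion layer keratins were lower at an unadjusted p under 0.05, against 6.45% of all genes. Of 15 hair shaft keratins, 13 were tested and 13 were lower at that threshold, with a median log2 fold change of -7.22. Krt35 and Krt31, early keratins of the shaft, had -7.24 ± 1.80 and -7.16 ± 1.76. Counts of the 8 sheath keratins were 1.06, 2.66, 1.84, 1.71 and 2.63 times those of the shaft keratins at 9 months and 1.38, 1.66, 2.85, 1.86 and 1.88 times at 24 months, so the ages overlapped in this ratio. Krt85, a further hair shaft keratin, could not be found under that symbol and is missing from the shaft counts. Of 8 keratins of the interfollicular epidermis and outer root sheath, 0 passed the unadjusted threshold in either direction, with a median of -0.14. Without 9 months replicates 4 and 5, the genes lower at an unadjusted p under 0.05 were 1 of 7 enzymes, 3 of 6 S100-fused genes, 0 of 8 junction, protease and lipid-signal genes and 1 of 11 transcription factors tested, against 4.14% of all genes. They were 1 of 6 companion layer keratins and 10 of 13 hair shaft keratins, whose median log2 fold change was then -1.97, near the -2.02 of the 9 sheath genes.

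Markers of several other cell types differed between the ages or the libraries beside the sheath genes. The summed level of 7 melanocyte markers was 128 and 295.5 CPM in 9 months replicates 4 and 5 against 8.44 to 16.9 in the other 8 libraries, with 2 of the 7 at 0 in a library. For 10 markers of dividing cells the sums were 353 and 613 against 91.1 to 227 CPM, and 10 of 10 were lower at 24 months at an unadjusted p under 0.05, against 6.45% of all genes. Without 9 months replicates 4 and 5, 7 of these 10 were lower at that threshold, against 4.14% of all genes. Fibroblast markers summed to 8101 to 11735 CPM at 9 months and to 1215 to 7076 CPM at 24 months, so the ages did not overlap, and the sums of 8101 and 8174 in 9 months replicates 4 and 5 were the lowest of the younger group. All 7 had a negative log2 fold change, and 3 of 7 were lower at an unadjusted p under 0.05, against 6.45% of all genes; without 9 months replicates 4 and 5 the count was again 3 of 7, against 4.14%. The collagen genes Col1a1, Col1a2 and Col3a1 had log2 fold changes of -1.75 ± 0.63, -1.58 ± 0.58 and -1.52 ± 0.56 (SE). Their groups did not overlap, as in 1.23% of all genes in this direction. Leukocyte markers went the other way, with sums of 59.3 to 100.1 CPM at 9 months and 99.4 to 259 CPM at 24 months that overlapped narrowly, and 3 of 5 were higher at an unadjusted p under 0.05, against 6.62% of all genes. DESeq2 called 2 of these 5 higher, against 2.06% of all genes. By edgeR Cd79a, a B cell marker, had a log2 fold change of 2.89 ± 0.68 and Ptprc, the common leukocyte marker, 0.92 ± 0.26. Adipocyte markers summed to 1879 to 3738 CPM at 9 months and 1508 to 13113 CPM at 24 months, with a positive median of 0.64. Of these 6, 1 was lower at an unadjusted p under 0.05, against 6.45% of all genes. Muscle markers summed to 36735 and 16893 CPM in 9 months replicates 4 and 5 against 20792 to 47865 in the others, and endothelium markers to 314 and 269.9 against 243 to 414. Sums of epidermal keratins were 18673 and 13377 CPM against 14623 to 29813, so that 9 months replicate 5 was the lowest of the 10. The part of these cells in the results on the sheath genes was not tested.

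**Figure D4:**
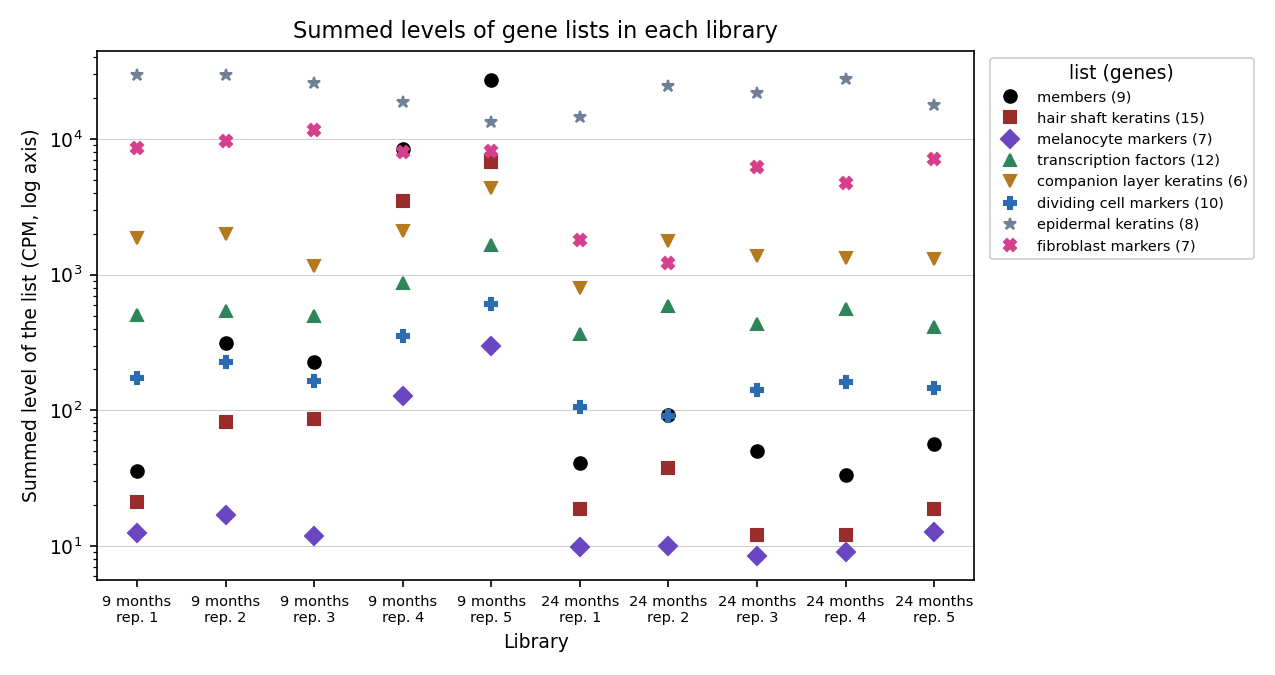
Summed level of each gene list in each library in CPM on a log axis, with a marker per list and the number of genes in brackets. The members reach 8506 and 27465 CPM in 9 months replicates 4 and 5 and 33.1 to 314 CPM elsewhere, hair shaft and melanocyte lists peak in the same 2 libraries, and epidermal keratins do not.

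Genes beside the members shared their pattern in part. Next to the type I block, Krt10, an epidermal keratin 10.4 kb away, ran from 2455 to 8262 CPM with its lowest level in 9 months replicate 5, and Krt24, 30.3 kb away on the other side, ran from 2.22 to 13.5 CPM. Next to the type II block, Krt2, 8.34 kb away, ran from 0.551 to 10.9 CPM. Krt5, a keratin of basal cells 21.1 kb away, had a log2 fold change of -0.14 ± 0.23. Farther out beyond Krt5, Krt6a at 39.6 kb had 162 and 396 CPM in 9 months replicates 4 and 5 against 15.7 to 81.3 in the others. Krt6b at 53.7 kb had 38.2 and 21.8 CPM there against 1.12 to 15.8. Krt1 and Krt77, beyond Krt2, were lowest in 9 months replicate 5. Beside Tchh, Tchhl1 at 19.7 kb was high in the same libraries as the members, while Rptn at 42.9 kb had 5.52 and 18.7 CPM in 9 months replicates 4 and 5 against 0.674 to 3.46 in the others.

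Likeness to the members was measured as the root mean square difference of log2 CPM from their mean profile over the 10 libraries, each gene centred on its own mean. The mean profile was made from the members themselves, which brings their own values down. Members ranged from 0.13 for Tchh to 0.39 for Krt26, with Krt74 apart at 1.10. Outside the lists, the protein-coding genes most like them were Gm9639 at 0.33, Krtap1-4 at 0.34, Gprc5d at 0.36, Krtap9-1 at 0.38, Krtap11-1 at 0.40, Gm11562 at 0.42, Krtap1-3 at 0.42, Calhm4 at 0.42, Gm11559 at 0.45 and Krtap4-16 at 0.45. The Krtap genes encode keratin-associated proteins of the hair shaft. Within the lists, some genes lay in the range of the members: Tchhl1 at 0.31, Crnn at 0.33, Krt31 at 0.33, Krt35 at 0.34 and Krt33a at 0.36. The last 3 are hair shaft keratins. Other genes of the same lists lay farther away, up to 1.91 for Krt32 and 3.52 for Hrnr. Over the 8 libraries other than 9 months replicates 4 and 5, Gm9639 was at 0.31, Krtap1-4 at 0.38 and Gprc5d at 0.34. The median over 14022 protein-coding genes was 3.26 over 10 libraries and 1.19 over 8. Genes tested with a mean of at least 1 CPM numbered 15042. Of these, 108 were at least 10 times higher in both 9 months replicates 4 and 5 than in any other library. The 9 members were among them, which was fixed in advance, because the 2 libraries were singled out for their high levels of the members. Krt74 reached the mean of 1 CPM only through these 2 libraries, as its highest level elsewhere was 0.541 CPM.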

How the data were processed

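Whole-number counts per gene, not normalized, were deposited by the authors for 10 mouse skin libraries; the submitters' processing notes name the build GRCm38 with CASAVA 1.7, STAR 2.4.1d and featureCounts 1.4.6-p4. Roles of these tools, annotation release, strand setting and the handling of multiply matching reads are not given in these sources, so counts of near-identical keratin genes and of overlapping genes are uncertain. The deposited RPKM values followed 40 totals in rotation rather than each library's own total: over 2000 genes, own totals left a spread of up to 4.59-fold between libraries. They served only as an alternative, on log2 (RPKM + 0.5).

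Of 47729 genes, 47224 had a symbol. The filterByExpr function of edgeR 4.0.16 kept 17668, including all 9 members. edgeR's robust quasi-likelihood F test (R 4.3.3) compared 24 with 9 months without covariates, adjusted over all genes tested. A call is an adjusted p under 0.05. The SE of an edgeR change was derived from this test, as the absolute log2 fold change divided by the square root of F. The script was tested on simulated data. These held no libraries set apart as the high ones are here, so that test does not cover this feature of the members. DESeq2 1.42.0, limma 3.58.1, other scalings and filters, and left-out libraries were alternatives. From each list, up to 4 genes with the smallest p and a mean of at least 1 CPM were eligible to be named, beside the neighbours, the 10 genes most like the members and, chosen after their values were seen, Tgm3 and Gata3. Members and lists were chosen with earlier results of these data known.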

Additional observations from a re-analysis of the deposited data

Results flagged for a closer look

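Within each age, a value far from the other 4 was looked for in 40 groups of 5 libraries: the levels of the 9 genes, their keratin shares and related ratios. A gap to the nearest library above 0.71 of the range was found in 4 of them. Chance gives such a gap in about 1 in 20 independent groups of normally distributed values. The groups here come from the same libraries and are not independent, so this rate is only a rough guide. Tchh stood at 9718 CPM in 9 months replicate 5, far above the other younger libraries. The other members were highest in 9 months replicate 5 too. Krt28 made up 10.6% of the keratin counts in 9 months replicate 1, above 5.89% to 6.59% in the other 4. Krt74 made up 0.633% of them in that same library, where this share rests on 4 counts. Krt73 made up 5.09% in 24 months replicate 1, above 3.37% to 3.70% in the other 4 older libraries.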

How the results depend on the processing

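Every member that could be fitted had a lower level at 24 months under 21 of the alternatives run, and Krt74 alone turned, to 0.20, under the other one, without 9 months replicates 4 and 5 together. Members called were 0 by edgeR, limma-voom and limma-trend under each setting run, and 9 by DESeq2. Over all genes edgeR called 0 (1139 lower and 1169 higher at an unadjusted p under 0.05), DESeq2 called 907, edgeR with no filter 1, limma-voom with library quality weights 3, and edgeR without 9 months replicates 4 and 5 together 1; leaving out each library gave 0 to 8, with 8 without 24 months replicate 4. Leaving out 9 months replicate 5 brought the change of Tchh from -7.10 to -5.25 and that of Krt71 from -6.72 to -5.07. On the deposited RPKM the members lay between -4.62 and -1.90. Averages of log values (limma) weigh the 2 high libraries less by construction. Krt74 could not be fitted with a filter of 1 CPM in 5 libraries. Shares per kilobase of exon in place of counts moved those of Krt26 to 2.52% and of Krt27 to 20.1%. Lengths implied by the deposited RPKM, an alternative chosen after seeing the data, gave the same values at this rounding.

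Changes of 46 named genes became calls, all by DESeq2: the 9 members, the 10 genes most like them and 27 genes of the lists. Over all genes DESeq2 called 2.29% of 20863 lower at 24 months and 2.06% higher. The like genes were picked for their profile and the list genes for their small p in these same data. Their calls are thus not independent of how they were chosen. Changes that were not called turned sign, among them Krt6b (-1.55 over all libraries), Cfd (0.92), Fabp4 (0.81) and Cidec (0.72): without 9 months replicates 4 and 5, Krt6b (0.38) and Tek (-0.048); on RPKM, Krt5 (0.23), Krt15 (0.24), Cdh5 (-0.00088) and Tek (-0.12); without 24 months replicates 1 and 2 together, Cfd (-0.13), Cidec (-0.23) and Fabp4 (-0.41); with quality weights, Cidec (-0.13). Leaving out each library gave -0.32 to 0.0898 for Krt15, -0.40 to 0.0094 for Tnnt3 and -0.38 to 0.14 for Egfl7, with the sign changed without 9 months replicate 1. It gave -0.019 to 1.14 for Cfd, -0.0029 to 0.96 for Cidec and -0.16 to 1.06 for Fabp4, changed without 24 months replicate 1, and -0.040 to 0.10 for Tek, changed without 24 months replicate 3. The cause was not tested. No paired analysis was possible because the labels give no replicate numbers shared between the ages. Libraries with 632 to 2320 keratin counts limit the precision of shares.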
